A study of Mus musculus with 9 samples.

Results

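The Z disc and Xin repeat genes described here are 10 mouse genes, Ldb3, Myot, Tcap, Myoz1, Myoz2, Myoz3, Xirp1, Xirp2, Nrap and Csrp3, out of 22180 genes measured. They were taken from a list of symbols, without a cut on their values. That list was chosen with earlier results of these data known. Each gene is represented by the probe set with a single gene symbol and the highest mean over the arrays. All 10 were measured. RNA came from hindlimb skeletal muscle of young mice at postnatal day 2 (P2), 7 (P7) and 14 (P14), with 3 biological replicates and 3 arrays at each age. The labels give the strain of all 3 groups as mixed and name no treatment or engineered allele, and they do not say if each replicate is a single animal or pooled animals. Values are log2 intensities, so a difference of 1 is a 2-fold change, and the number of arrays limits their precision.

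The Z disc is the protein plate that joins neighbouring sarcomeres, where actin filaments of opposite polarity are crosslinked by alpha-actinin and the end of titin is anchored. Ldb3, myotilin (Myot), the myozenins (Myoz1, Myoz2 and Myoz3) and telethonin (Tcap) are built on that scaffold, and in adult muscle they hold it together and dock signalling proteins such as calcineurin. The Xin repeat proteins (Xirp1 and Xirp2), Nrap and the LIM protein Csrp3 bind actin or its partners where filaments are assembled or attached to the membrane, at the ends of fibres and in the heart at the intercalated disc. Intensities of different probe sets are not on a common scale, so each gene was compared only with itself across ages, or through the change of a within-array difference.

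The spread among arrays was wider at P2 than later. For the 10 genes the median SD over arrays of an age was 0.41 (P2), 0.17 (P7) and 0.13 (P14), against 0.25, 0.20 and 0.16 for all genes. P2 replicate 1 was the lowest P2 array for 9 of the 10 genes and P2 replicate 2 the highest for 7. The median of the 10 genes relative to their P2 means was -0.33 on P2 replicate 1, 0.35 on P2 replicate 2 and 0.08 on P2 replicate 3, against -0.02 to 0.03 for all genes. Fast fibre markers moved in part with this, with a median of -0.30, 0.04 and 0.24 on the same arrays. Skeletal muscle markers had medians of -0.22, 0.15 and 0.09 there, in the same order as the 10 genes. Both marker lists hold Mylpf, so they are not fully separate. The part of either marker list in the spread was not tested.

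Across the 12 days from P2 to P14, 7 of the 10 genes rose, 0 fell and 3 did not pass the test (limma, adjusted p under 0.05 over all genes). Of all genes, 11.0% passed that test, 6.63% as rises and 4.40% as falls. Rises made up 60.1% of these genes, and 48.0% with cyclic loess normalisation. For any change over the 3 ages, 5 of the 10 passed (Xirp2, Nrap, Tcap, Myot and Myoz1), as did 8.24% of all genes. The median change of the 10 genes was 0.84 on the log2 scale, against 0.01 for all genes. Xirp2 rose most, 5.02-fold, followed by Tcap (2.60-fold), Myoz3 (2.28-fold) and Nrap (2.26-fold). Smaller rises were found for Myot (1.83-fold), Myoz1 (1.75-fold) and Ldb3 (1.45-fold). Xirp1, Myoz2 and Csrp3 did not pass. On 8 of the 10 probe sets the 3 arrays at P14 all lay above the 3 at P2, which was so for 16.2% of all genes. Without P2 replicate 1, or without any 1 of the P14 arrays, 4 of the 10 genes passed, where 7.14% and 6.19% to 6.85% of all genes did. In whole muscle, more cells of a type and more RNA per cell cannot be told apart.

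**Figure D1:**
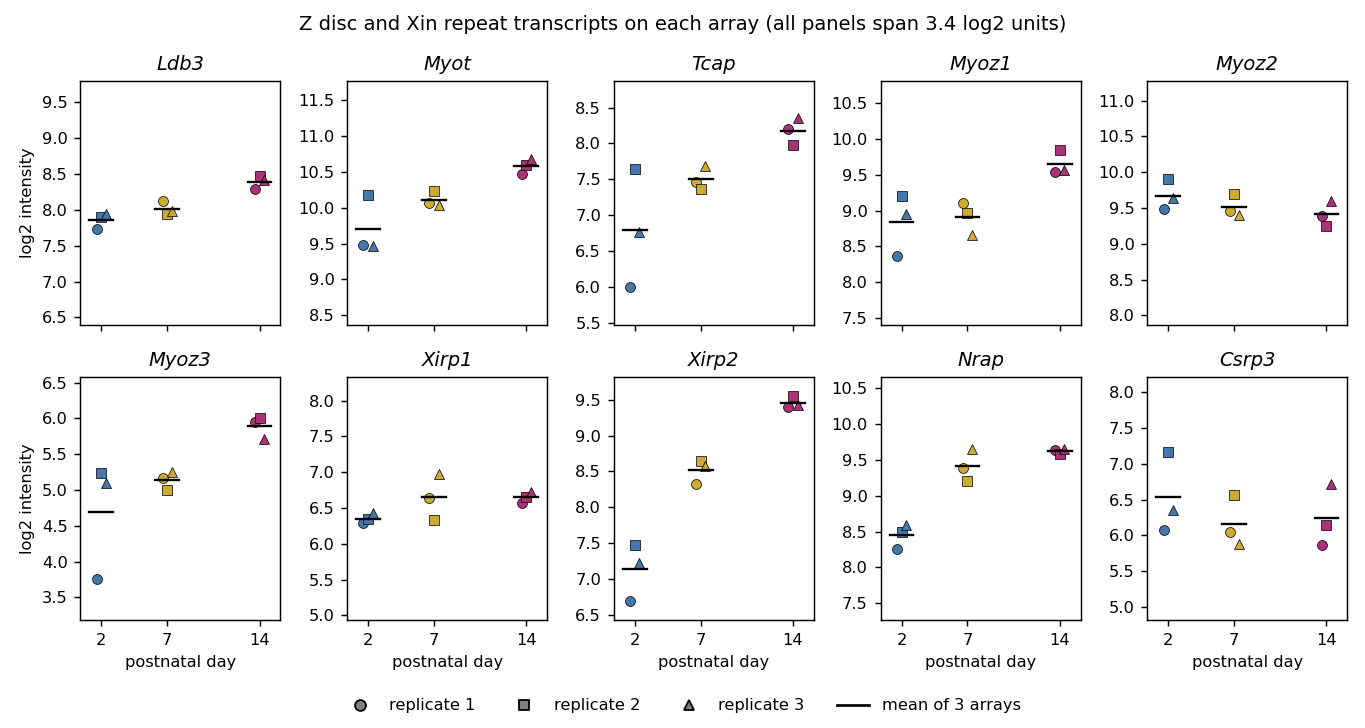
Log2 intensity (vertical axis) of each of the 10 genes on each of the 9 arrays, against postnatal day; symbols mark the replicate number, bars the mean of 3 arrays, and all panels span the same range. Xirp2 and Nrap separate P2 from P7 with no overlap, whereas Myoz2 and Csrp3 overlap at all ages, and P2 replicate 1 is the lowest P2 array for 9 of the 10 genes.

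Promoter windows of 300 bases are shown for Xirp2 and Nrap, which also rose from P2 to P7, and for Myoz2 and Csrp3, which did not pass. Each runs from 250 bases before a RefSeq transcription start to 50 bases after it (RefSeq, build GRCm38.p6), 5′ to 3′ on the strand of the gene. The windows are chr2:67445752-67446051 on the plus strand for Xirp2, chr19:56389989-56390288 on the minus strand for Nrap, chr3:123034938-123035237 on the minus strand for Myoz2 and chr7:48848002-48848301 on the minus strand for Csrp3. Capitals mark matches to the motifs searched on both strands, which may overlap.
Xirp2: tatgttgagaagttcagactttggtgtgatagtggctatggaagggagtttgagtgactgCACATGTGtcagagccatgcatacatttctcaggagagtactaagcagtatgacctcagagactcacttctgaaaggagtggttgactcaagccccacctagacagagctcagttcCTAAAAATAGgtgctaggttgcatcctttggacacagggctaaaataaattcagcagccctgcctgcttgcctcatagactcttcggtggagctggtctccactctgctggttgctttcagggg
Nrap: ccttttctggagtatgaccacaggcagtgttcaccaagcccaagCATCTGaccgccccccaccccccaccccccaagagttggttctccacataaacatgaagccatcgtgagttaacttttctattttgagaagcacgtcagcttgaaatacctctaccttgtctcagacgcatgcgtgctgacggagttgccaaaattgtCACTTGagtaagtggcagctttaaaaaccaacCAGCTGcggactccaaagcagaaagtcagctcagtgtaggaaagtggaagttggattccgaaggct
Myoz2: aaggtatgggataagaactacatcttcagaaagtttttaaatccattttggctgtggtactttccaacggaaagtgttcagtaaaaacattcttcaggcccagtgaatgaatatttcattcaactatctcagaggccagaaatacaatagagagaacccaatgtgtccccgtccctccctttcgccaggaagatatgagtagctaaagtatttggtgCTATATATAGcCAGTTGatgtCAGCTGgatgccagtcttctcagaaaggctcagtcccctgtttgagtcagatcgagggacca
Csrp3: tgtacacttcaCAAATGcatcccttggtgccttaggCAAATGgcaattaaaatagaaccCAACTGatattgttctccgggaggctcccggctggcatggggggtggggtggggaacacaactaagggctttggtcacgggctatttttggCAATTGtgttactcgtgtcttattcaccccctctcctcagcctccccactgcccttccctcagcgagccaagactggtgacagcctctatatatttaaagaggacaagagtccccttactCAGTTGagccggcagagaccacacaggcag

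The motifs searched were the E-box (CANNTG), bound by myogenic bHLH factors among others, the M-CAT element (CATTCC), the TATA box (TATAAA), the MEF2 site and the CArG box. A MEF2 site lay in the windows of both Xirp2 and Myoz2, starting 74 and 33 bases upstream of the transcription start. Of 32851 windows of this length over all genes, 3.19% held such a site, 1.63% a CArG box, 14.7% an M-CAT element and 13.6% a TATA box. E-boxes, which 72.3% of all windows held, numbered 2 for Xirp2, 3 for Nrap, 2 for Myoz2 and 5 for Csrp3. Neither M-CAT nor the TATA letters matched in these 4 windows or in the other member windows of the table. A second Csrp3 window held 4 E-boxes, and both Ldb3 windows, which overlap, held the same CArG box. In all, 7 windows were found for 5 of the 10 genes, and these matches describe letters, not sites in use.

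Among the genes of the Z disc scaffold, Tcap encodes telethonin, the small cap that joins the ends of a pair of titin molecules. Its values were 5.99, 7.64 and 6.76 at P2, 7.46, 7.36 and 7.68 at P7, and 8.20, 7.98 and 8.35 at P14. The P14 arrays lay above all others, and P2 replicate 2 lay among the P7 arrays. From P2 to P14 the change was 1.38 ± 0.30 (SE) on the log2 scale (adjusted p = 0.00882, limma). It kept its call with any single array left out, with a value between 0.98 without P2 replicate 1 and 1.80 without P2 replicate 2.

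Myot encodes myotilin, which binds alpha-actinin and filamin C and crosslinks actin. It was measured at 9.48, 10.18 and 9.46 at P2, 10.06, 10.24 and 10.04 at P7, and 10.47, 10.59 and 10.68 at P14. Here P2 replicate 2 stood with the P7 arrays, and the P14 arrays were the highest. The rise from P2 to P14 was 0.87 ± 0.20 (adjusted p = 0.0116, limma) and lost its call without P2 replicate 1 (adjusted p = 0.0532) or P14 replicate 3 (0.0540).

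Ldb3 encodes Cypher, or ZASP, a PDZ and LIM domain protein that binds alpha-actinin. Its P2 values of 7.73, 7.90 and 7.94, P7 values of 8.12, 7.94 and 7.99 and P14 values of 8.29, 8.47 and 8.41 covered a narrow range, and the P14 arrays lay above all others. The rise of 0.53 ± 0.16 was close to the threshold (adjusted p = 0.0443, limma). It was lost when any array other than P2 replicate 3 was left out (adjusted p up to 0.158), and with cyclic loess normalisation it was 0.33 (adjusted p = 0.194). Ldb3 is spliced into several forms, and a single value per gene does not tell them apart.

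The myozenins, also called calsarcins or FATZ proteins, link alpha-actinin, filamin C and telethonin and tether the phosphatase calcineurin. Myoz1 and Myoz3 belong mainly to fast fibres, and Myoz2 to slow fibres and the heart. Myoz1 was measured at 8.37, 9.21 and 8.96 at P2, 9.11, 8.97 and 8.66 at P7, and 9.54, 9.85 and 9.57 at P14. P2 and P7 were mixed, and every P14 array was higher than the 6 others. The rise from P2 to P14 was 0.81 ± 0.22 (adjusted p = 0.0267, limma), and the call was lost without P2 replicate 1 or any P14 array (adjusted p up to 0.122) and with cyclic loess (0.58, adjusted p = 0.0883).

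All arrays of Myoz3 were above 3.23, the 95th percentile of 1443 smell, taste and pheromone receptor genes taken as background. Its values were 3.75, 5.24 and 5.10 at P2, 5.17, 5.01 and 5.25 at P7, and 5.95, 6.01 and 5.71 at P14. The first P2 array stood apart from the others. The change from P2 to P14 was 1.19 ± 0.30 (adjusted p = 0.0185, limma). It was 0.72 without P2 replicate 1, where it still passed (adjusted p = 0.0310), and leaving out either the first or the second P14 array ended the call (largest adjusted p 0.0759).

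Myoz2 went the other way in its means and did not pass the test. It was measured at 9.48, 9.90 and 9.63 at P2, 9.46, 9.69 and 9.41 at P7, and 9.39, 9.24 and 9.60 at P14, so that all 3 ages overlapped. The difference between P14 and P2 was -0.26 ± 0.18, with a 95% confidence interval from -0.64 to 0.12 (adjusted p = 0.416, limma). A fall of up to that size, or a small rise, is thus within the error.

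Within arrays, Myoz1 minus Myoz2 had means of -0.83 ± 0.25 (SD, n = 3) at P2, -0.60 ± 0.22 at P7 and 0.24 ± 0.33 at P14, a shift of 1.07. Myoz2 minus Myoz3 fell by 1.45, from 4.97 ± 0.66 to 3.52 ± 0.34. Both shifts passed an exact permutation test of the F statistic over the 3 ages, which takes no account of direction (adjusted p = 0.0357 and 0.0268 over 5 pairs of genes). Myoz1 minus Myoz3 had a shift of -0.38 and did not pass (exact permutation test, adjusted p = 0.368). In this unblocked test the change of Myoz2 thus differed from that of each fast myozenin. With a replicate block neither shift passed (exact permutation test, adjusted p = 0.185 and 0.139, unadjusted p = 0.111 and 0.0556). The smallest unadjusted p possible there was 0.0278, which becomes 0.139 where 1 pair alone reaches it. No pair could thus pass the blocked test unless others reached that smallest p as well, so not passing says little. Both calls of the unblocked test were lost without P2 replicate 1, P7 replicate 1 or P14 replicate 2 (largest adjusted p 0.0714).

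Of the Xin repeat genes, Xirp2 encodes the long Xin protein, also named myomaxin, an actin-binding repeat protein of striated muscle. It was measured at 6.69, 7.48 and 7.23 at P2, 8.33, 8.65 and 8.58 at P7, and 9.40, 9.55 and 9.43 at P14. The 3 ages formed separate steps with no overlap, and Xirp2 had the 25th largest rise from P2 to P14 among all genes.

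Xirp2 rose 2.62-fold from P2 to P7 (log2 1.39 ± 0.20, adjusted p = 0.00989, limma) and 1.92-fold from P7 to P14 (0.94 ± 0.20, adjusted p = 0.0238). Over the whole span the change was 2.33 ± 0.20 (adjusted p = 5.08e-06), and it passed with any single array left out (2.11 to 2.50). The first step lost its call without P7 replicate 2 or 3 (adjusted p up to 0.0637) and in a fit of those 2 ages alone (0.0658). The second lost it without any P7 or P14 array (up to 0.119) and with cyclic loess (0.80, adjusted p = 0.0538). Xirp2 has another probe set near background, with 2.62, 3.29 and 2.69 at P2, 2.88, 3.72 and 2.99 at P7, and 4.05, 3.58 and 3.95 at P14. With both probe sets averaged the whole change was 1.66, and neither step passed (adjusted p = 0.0986 and 0.0624).

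Xirp1 encodes Xin, also named Cmya1, which is found at the ends of fibres and is known to be raised in damaged or regenerating muscle. Its values were 6.29, 6.34 and 6.42 at P2, 6.64, 6.33 and 6.97 at P7, and 6.56, 6.66 and 6.72 at P14. The P14 arrays lay just above the P2 arrays, and the P7 arrays overlapped both. The change from P2 to P14 was 0.30 ± 0.18 (95% confidence interval -0.09 to 0.69, adjusted p = 0.355, limma). Within arrays, Xirp1 minus Xirp2 fell by 2.03, from -0.78 ± 0.37 (SD, n = 3) at P2 through -1.87 ± 0.39 at P7 to -2.81 ± 0.09 at P14. The exact permutation p for that shift was 0.00357, the smallest that 9 arrays in 3 groups can give (adjusted p = 0.0179 over 5 pairs), and without P14 replicate 2 the adjusted p was 0.0536.

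**Figure D2:**
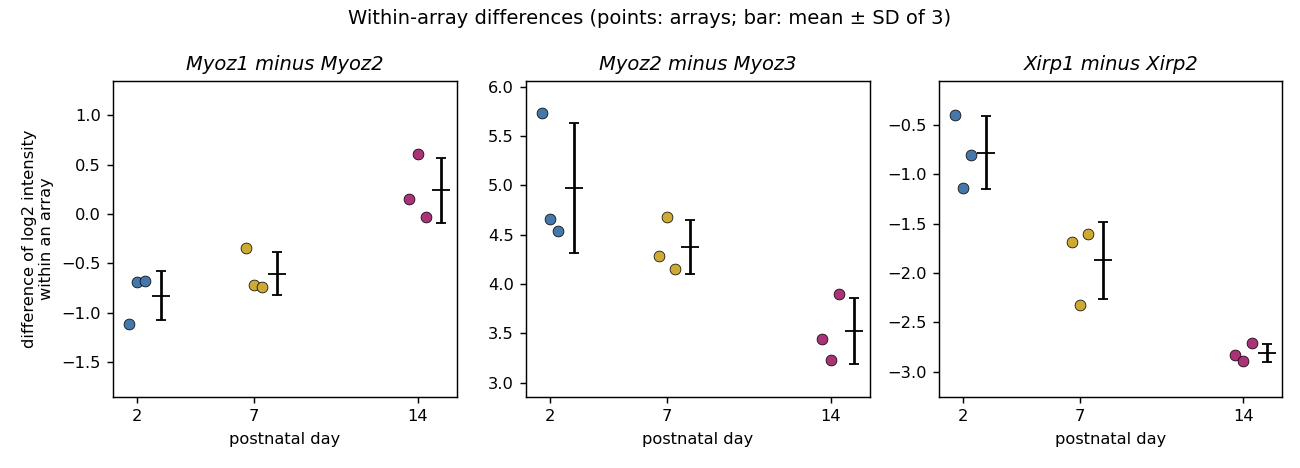
Within-array difference of log2 intensity (vertical axis) between members of a family against postnatal day; points are arrays, and bars are the mean and SD of 3 arrays. Myoz1 minus Myoz2 moves up by 1.07 from P2 to P14, Myoz2 minus Myoz3 down by 1.45 and Xirp1 minus Xirp2 down by 2.03.

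Nrap encodes a nebulin-related anchoring protein with a LIM domain, which takes part in the first assembly of myofibrils and stays at the ends of the mature fibre. It was measured at 8.26, 8.49 and 8.60 at P2, 9.39, 9.20 and 9.66 at P7, and 9.65, 9.58 and 9.66 at P14. All P7 and P14 arrays lay above the P2 arrays, and P7 and P14 overlapped. Nrap rose 1.96-fold from P2 to P7 (0.97 ± 0.17, adjusted p = 0.0308, limma) and had a difference of 0.21 ± 0.17 from P7 to P14 (adjusted p = 0.662). Over the whole span it rose by 1.18 ± 0.17 (adjusted p = 0.000558), with any single array left out as well. The first step was lost when any array other than P2 replicate 2 or 3 was left out (adjusted p up to 0.150). A fit of P2 and P7 alone did not call it either (limma, adjusted p = 0.142).

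Csrp3 encodes muscle LIM protein, which in adult skeletal muscle belongs to slow fibres and binds alpha-actinin and telethonin. Its values were 6.08, 7.17 and 6.35 at P2, 6.04, 6.57 and 5.88 at P7, and 5.86, 6.15 and 6.72 at P14. No age stood apart, and the highest array of all was P2 replicate 2. The difference between P14 and P2 was -0.29 ± 0.29 (95% confidence interval -0.90 to 0.32, adjusted p = 0.593, limma), and it was 0.03 without P2 replicate 2. Within arrays, Ldb3 minus Csrp3 moved by 0.82 and did not pass (exact permutation test, adjusted p = 0.219).

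Taken by interval, 2 of the 10 genes rose from P2 to P7, Xirp2 and Nrap, where 0.329% of all genes changed and 0.185% rose. From P7 to P14, 1 of the 10 genes rose, Xirp2, where 2.43% of all genes changed and 1.72% rose. In that second interval 6 of the 10 genes had all P14 arrays above all P7 arrays (Ldb3, Myot, Tcap, Myoz1, Myoz3 and Xirp2), as did 14.8% of all genes, and in the first interval 2 of the 10 did, as did 7.30%. In a fit of P7 and P14 alone, 4 of the 10 genes passed the second interval, namely Xirp2, Myoz1 (adjusted p = 0.0307), Myoz3 (0.0199) and Tcap (0.0389), where 4.74% of all genes passed.

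The P7 mean lay at different points of the way from P2 to P14 among the 7 genes that rose. It had covered 82.2% of the change for Nrap, 59.6% for Xirp2, 51.0% for Tcap, 46.6% for Myot, 37.4% for Myoz3, 29.6% for Ldb3 and 8.45% for Myoz1, while 41.7% of the days had passed. A test of the later change minus the earlier one called 0 of the 10 genes (limma), where 0.194% of all genes were called. Nrap alone among the 10 had an unadjusted p under 0.05, as did 8.12% of all genes. For Nrap this difference was -0.76 ± 0.30 (adjusted p = 0.527), and for Myoz1 it was 0.67 ± 0.38 (adjusted p = 0.691). The order of these shares is therefore a description.

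**Figure D3:**
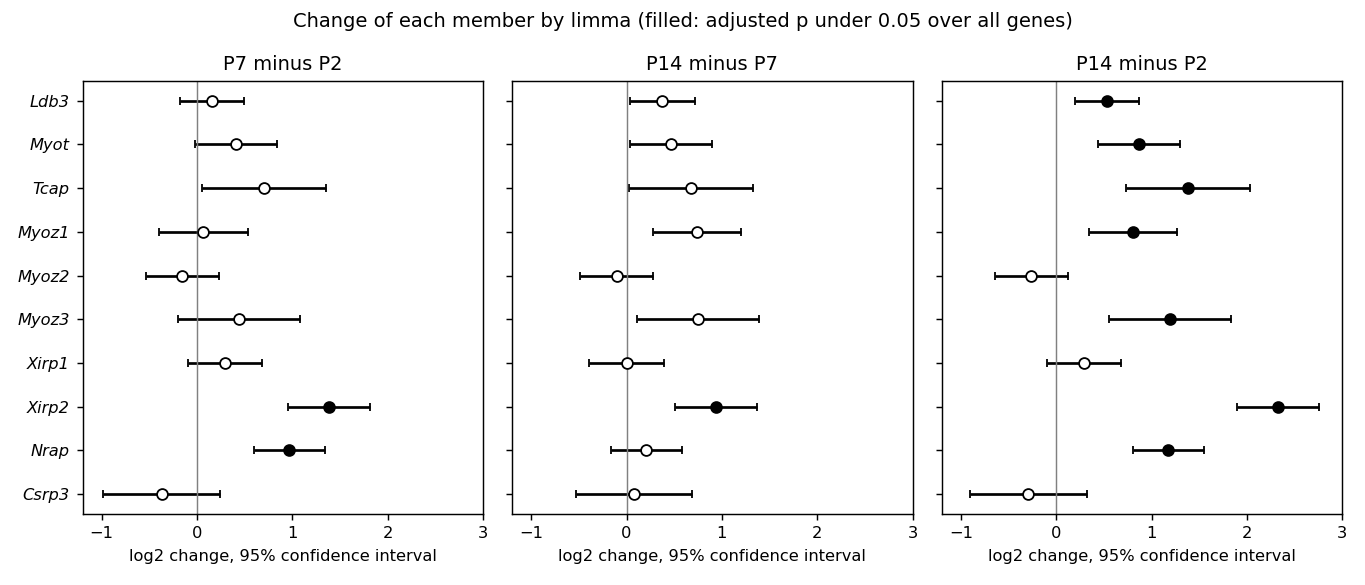
Log2 change (horizontal axis) of each of the 10 genes with its 95% confidence interval from limma, for P7 minus P2, P14 minus P7 and P14 minus P2; filled points passed at an adjusted p under 0.05 over all genes. Xirp2 is filled in all 3 panels, Nrap in the first and the last, and 7 genes are filled in the last.

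Skeletal muscle markers were above background at every age, including skeletal actin (Acta1), muscle creatine kinase (Ckm) and desmin (Des), as were all 9 slow and all 10 fast fibre markers. Over the span from P2 to P14, to which the calls below refer, 6.63% of all genes rose and 4.40% fell. Of the 6 skeletal muscle markers 2 rose from P2 to P14 and 0 fell, with a median change of 0.44. Mylpf stands in both this list and that of the fast fibre markers. Their summed intensity was 6178 to 7109 on P2 arrays, 6920 to 8022 on P7 arrays and 8731 to 9174 on P14 arrays. Of the fast fibre markers 8 of 10 rose from P2 to P14 and 0 fell. The sum of their linear intensities ranged over 6337 to 8963 on P2 arrays, 14736 to 16048 on P7 arrays and 20653 to 22046 on P14 arrays. Of the slow fibre markers 1 of 9 rose (Myl3, log2 1.23), 1 fell (Casq2, -1.54) and 7 were not called. Their sums were 1040 to 1289 on P2 arrays, 920 to 1181 on P7 arrays and 622 to 1109 on P14 arrays. These sums are weighted toward Casq2, the brightest slow marker at P2 (mean 9.10, and 7.56 at P14), so their fall does not describe the list as a whole. At P14 replicate 3 held the highest slow sum (1109, against 694 and 622) and also the highest Csrp3 and Myoz2 values of that age, but at P2 replicate 2 held the lowest slow sum (1040) and the highest values of both. Of 7 fibroblast markers 1 fell and 0 rose, with a summed intensity of 4710 to 7047 at P2 and 3948 to 4635 at P14. Of 6 heart muscle markers 0 passed (0 at an unadjusted p under 0.05), with summed levels of 56.5 to 63.9 at P2 and 62.3 to 62.5 at P14, and the atrial light chain Myl7 was at background at all ages. Of 6 developmental sarcomere markers 5 fell and 1 rose, and of 6 cartilage and bone markers 2 fell. None of 6 endothelial, 5 tendon and 5 macrophage markers passed (limma), and 3, 1 and 1 had an unadjusted p under 0.05. The part of fibre type and of other cells in the changes of the 10 genes was not tested.

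Among other proteins of the Z disc, of 27 measured genes 9 rose from P2 to P14 and 0 fell (6.63% and 4.40% of all genes). Their median change was 0.39. Synemin (Synm), an intermediate filament protein that links Z discs to each other, rose 3.74-fold (log2 1.90 ± 0.19, adjusted p = 1.52e-05, limma) and was the one that also rose from P7 to P14 (1.96-fold, adjusted p = 0.0129). The fast-fibre alpha-actinin Actn3 rose 3.24-fold over the span and 2.47-fold from P2 to P7 (adjusted p = 0.0112), the single gene of the list that passed there. Myopalladin (Mypn), the chaperone regulator Bag3 and the actin-capping subunit Capza2 rose 1.66-fold, 1.64-fold and 1.61-fold, as did the cyclase-associated protein Cap2 (1.65-fold). Alpha-actinin 2 (Actn2), the crosslinker found in all fibre types, had a change of 0.23 ± 0.17 (adjusted p = 0.460), and titin (Ttn) one of 0.10 ± 0.15 (adjusted p = 0.762). Without P2 replicate 1 the count was 4 of 27, where 7.14% of all genes passed. With cyclic loess it was 3 of 27, near the share over all genes (11.4%).

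Proteins of the membrane attachments and fibre ends, some of which bind Nrap or Xin, made up a list of their own. Most attach filaments to the membrane, but the list also held a collagen, an ankyrin repeat protein and a kelch protein. Of 22 measured genes 0 rose and 3 fell from P2 to P14 (6.63% and 4.40% of all genes), with a median of -0.28. In either interval 0 passed (3 and 2 at an unadjusted p under 0.05). The 3 were the actin regulator Enah (1.67-fold lower, adjusted p = 0.0223), the integrin-binding melusin gene Itgb1bp2 (1.49-fold lower, adjusted p = 0.0376) and M-cadherin Cdh15 (1.52-fold lower, adjusted p = 0.0417, all limma). Vinculin (Vcl) had a change of 0.15 ± 0.18 and Klhl41, a kelch protein that binds Nrap, one of 0.06 ± 0.20. Without P2 replicate 1 a single gene of this list was called, and with cyclic loess 5 were, where 7.14% and 11.4% of all genes were.

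Myozenins restrain calcineurin, the phosphatase that activates NFAT factors. Of 10 measured genes of that pathway 3 rose from P2 to P14 and 0 fell (6.63% and 4.40% of all genes), with a median of 0.29. They were the feedback inhibitor Rcan1 (2.37-fold, log2 1.24 ± 0.23, adjusted p = 0.00277, limma), and the catalytic subunits Ppp3cc (1.64-fold, adjusted p = 0.0178) and Ppp3ca (1.53-fold, adjusted p = 0.0321). Rcan1 was measured at 5.25, 4.83 and 5.41 at P2, 5.79, 5.77 and 5.26 at P7, and 5.98, 6.60 and 6.65 at P14. Every P14 array was above every earlier one, and P2 and P7 overlapped.

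**Figure D4:**
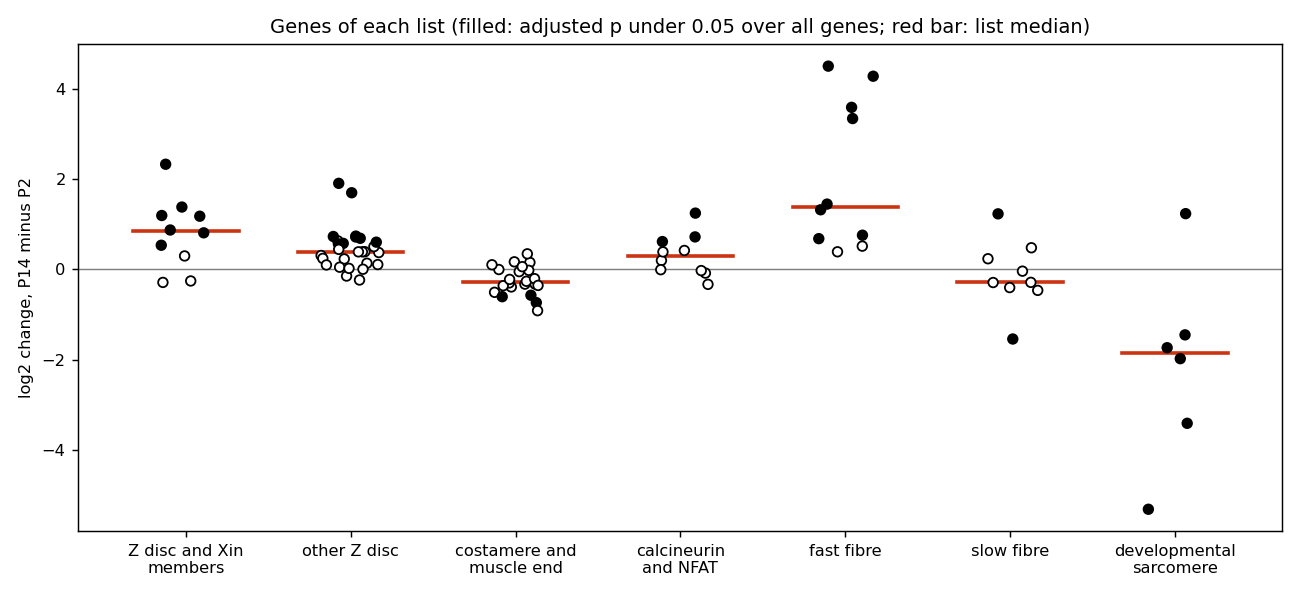
Log2 change from P2 to P14 (vertical axis) of each gene in the lists named along the horizontal axis; filled points passed at an adjusted p under 0.05 over all genes, and red bars are list medians. The medians are 0.84 for the 10 Z disc and Xin repeat genes, 0.39 for other Z disc genes, -0.28 for attachment genes, 0.29 for calcineurin genes, 1.38 for fast fibre, -0.29 for slow fibre and -1.86 for developmental sarcomere markers.

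The genes whose profile over the 9 arrays was most like that of a member were found by the root mean square difference of centred log2 values, among 11395 genes above the median level. Nearest to Xirp2 were Ucp3, a mitochondrial carrier protein of muscle (0.11), the muscle phosphorylase kinase subunit Phkg1 (0.19) and Klf9 (0.20). Nearest to Nrap were the clock repressor Nr1d1 (0.09), the muscle calcium channel subunit Cacna1s (0.11) and Prr29 (0.11). Nearest to Tcap were Clec2d (0.19), Dhdh (0.21) and the sarcomere ubiquitin ligase Trim63 (0.22), and to Myoz3 the muscle cytochrome oxidase subunit Cox6a2 (0.19), Mfn2 (0.19) and Atp5k (0.20). Myot was nearest to Dcaf6 (0.08), Ech1 (0.11) and Dram2 (0.12), Myoz1 to Pex11a (0.12), Idh3g (0.13) and Marchf5 (0.14), and Ldb3 to Gapdh (0.07), Scarb2 (0.07) and Mars1 (0.08). Myoz2 was nearest to Foxo3 (0.08), Hint2 (0.09) and Fam205a2 (0.09), Xirp1 to Pcdhb14 (0.08), Wnk1 (0.09) and Adamts16 (0.10), and Csrp3 to Zfp712 (0.19), Spindoc (0.21) and Noxa1 (0.21).

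Within the group of 10, the closest pairs were Ldb3 with Xirp1 (0.22), Ldb3 with Myoz1 (0.24) and Myot with Myoz1 (0.25). Myoz2 and Csrp3 were at 0.27, as were Myoz3 and Tcap. The centred values were not scaled, so genes with little change lie close to each other by this measure. The widest gap was between Xirp2 and Csrp3 (1.13), and that between the Xin genes themselves was 0.87.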

How the data were processed

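The deposited table holds 1 log2 intensity per probe set and array (41345 probe sets, 9 arrays, none missing), made by the authors with RMA and Partek, which the submitters' processing notes name without versions or settings. Per the labels' protocols, RNA was extracted with Trizol and 6 ug of it was made into biotinylated cRNA for Affymetrix arrays. That the base is 2 follows from RMA. Raw intensities and the genome build of the probe design were not used here. Array medians were 3.29 to 3.36.

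Probe sets were named from a platform annotation table. It gives 23521 of them 1 symbol and 1814 several, and the rest are unnamed here. The brightest 1-symbol probe set of each gene was kept (22180 genes), with no filter on dim genes. Of 139 list genes 133 were measured, 1 under a synonym. A linear model with 1 mean per age over all 9 arrays was fitted by limma (version 3.58.1, R 4.3.3). Tests were two-sided, with the Benjamini-Hochberg adjustment across all 22180 genes. The same kind of limma fit was tried on simulated data for P14 against P2 alone. The other contrasts, the test of any change, the replicate block and the permutation test were not tried in that way. Each p-value reflects only how far these samples differ, part of which may be technical. Within-array differences of 5 pairs were tested by exact permutation over 1680 assignments of arrays to ages.

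The 10 genes and the lists were chosen with earlier results of these data known. The genes named were all members, up to 6 list genes per list and comparison with the smallest adjusted p among those called, and the 3 nearest profiles per member, passing over clone and locus numbers. Actn2, Ttn, Vcl and Klhl41 were named after their values were seen. Alternatives were equal array medians, cyclic loess, a filter on dim genes, the mean of all probe sets, a trended and robust variance, fits of 2 ages, a replicate block and leaving out each array.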

Additional observations from a re-analysis of the deposited data

How the results depend on the processing

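With 1 array left out, the number of the 10 genes past the threshold ranged from 4 to 7 for P14 against P2 (7 with all arrays), from 0 to 3 for P7 against P2 (2), from 0 to 3 for P14 against P7 (1) and from 2 to 6 for any change over the 3 ages (5, where 8.24% of all genes were called). Over all genes the same ranges were 1373 to 2611, 11 to 206, 214 to 794 and 845 to 2139, and 18 to 44 for the later minus the earlier interval. For P7 against P2, 171 genes passed with dim genes left out, 159 with a trended and robust variance and 12 in a fit of 2 ages alone (73 in the main fit). Of the 10 genes 1 passed with the mean of all probe sets, where 61 of all genes did, and 0 with 2 ages alone. For P14 against P7, 0 of the 10 genes passed with cyclic loess, 0 with the mean of all probe sets, 2 with the trended variance and 4 with 2 ages alone. Over all genes these settings called 453, 522, 760 and 1051 (538 in the main fit). Cyclic loess gave 2 of the 10 genes for any change, and the count over all genes in that setting is not given here. It also moved the share of rises among called genes from 60.1% to 48.0% for P14 against P2 and from 71.0% to 53.0% for P14 against P7. It turned the P7 against P2 value of Myoz1 to -0.029 and the P14 against P7 value of Csrp3 to -0.068, neither of which was called.

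Leaving out 1 array also turned values that were not called. These ran from -0.17 to 0.25 (Myoz1) and -0.028 to 0.72 (Myoz3) for P7 against P2, from -0.16 to 0.16 (Xirp1) and -0.16 to 0.28 (Csrp3) for P14 against P7, and from -0.53 to 0.026 (Csrp3) for P14 against P2. For the later minus the earlier interval they ran from -0.18 to 0.18 (Myot), -0.065 to 0.22 (Myoz2), -0.45 to 0.38 (Tcap) and -0.62 to 0.029 (Xirp1). The shifts between pairs ran from 0.88 to 1.20 (Myoz1 minus Myoz2), -1.67 to -1.07 (Myoz2 minus Myoz3), -2.21 to -1.84 (Xirp1 minus Xirp2), -0.53 to -0.15 (Myoz1 minus Myoz3) and 0.53 to 1.05 (Ldb3 minus Csrp3).

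Same-numbered arrays showed no clear shared shift over all genes, since their deviations correlated at -0.03 to 0.06. The labels do not say whether same-numbered arrays belong together. With a replicate block, 6 of the 10 genes passed for P14 against P2, and 2320 of all genes. The shifts of 1.07, -1.45 and -2.03 then had adjusted exact permutation p-values of 0.185, 0.139 and 0.139, where 0.0278 was the smallest unadjusted p possible. Xirp1 minus Xirp2 (-2.03) reached that smallest p. Its adjusted value could not pass unless other pairs reached it too. The counts for other Z disc, attachment and calcineurin genes without P2 replicate 1 and with cyclic loess were added after seeing the data. The calcineurin count was 2 in both, where 7.14% and 11.4% of all genes passed. The cause of these differences was not tested.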
